A study of Mus musculus with 17 samples.

Results

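Steady-state RNA was compared between ventricular cardiomyocytes labelled as MBNL1 loss-of-function (KO) and cardiomyocytes of control mice (WT), before any actinomycin D was given. The comparison took the 6 untreated libraries of the study, 3 KO and 3 WT, out of 17, and used all 13229 of 55486 genes that passed a filter on low counts. The myocytes came from mice at postnatal day 60, were freed by Langendorff perfusion with Liberase and plated on laminin before harvest, so both genotypes had been through enzymatic isolation and plating. The other 11 libraries had received the transcription blocker for 4 or 8 h and served here to estimate the spread and to show whether a difference recurred. The labels name neither the Mbnl1 allele nor a Cre line, nor whether each replicate is an animal of its own, so p-values measure the spread between these samples, which may be technical.

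MBNL1 is a muscleblind-like RNA-binding protein. It directs the postnatal switch of many transcripts from fetal to adult splice forms in heart and skeletal muscle, and it binds mature transcripts in the cytoplasm, where it acts on their stability and localisation. Its sequestration by expanded repeat RNA is a central event in myotonic dystrophy, a disease of muscle and of cardiac conduction.

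Untreated libraries held 17058419 to 17610836 counts assigned to genes. Levels are given as CPM, counts scaled to a common TMM-adjusted library total, and a gene was called when the quasi-likelihood test of edgeR gave a Benjamini-Hochberg adjusted p under 0.05 over all tested genes. By this rule 4848 genes (36.6%) differed, 2485 higher (18.8%) and 2363 lower (17.9%) in KO, and the 6 libraries split by genotype along the first principal component (62.9% of the variance). Most differences were small, with a median absolute log2 fold change of 0.39 among called genes, but 167 genes were at least 2-fold higher and 473 at least 2-fold lower. At this depth the CPM of the genotypes did not overlap in 6060 genes (45.8%), so a lack of overlap was common. The split between higher and lower depended on the scaling. Library size alone gave 906 higher and 5563 lower and moved the median of all genes from -0.02 to -0.22. Scaling on ribosomal protein counts gave 479 higher and 7609 lower, with a median of -0.35. Directions of small changes are therefore relative to the bulk of the transcripts, and each gene list below carries its median under all 3 scalings, in this order.

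**Figure D1:**
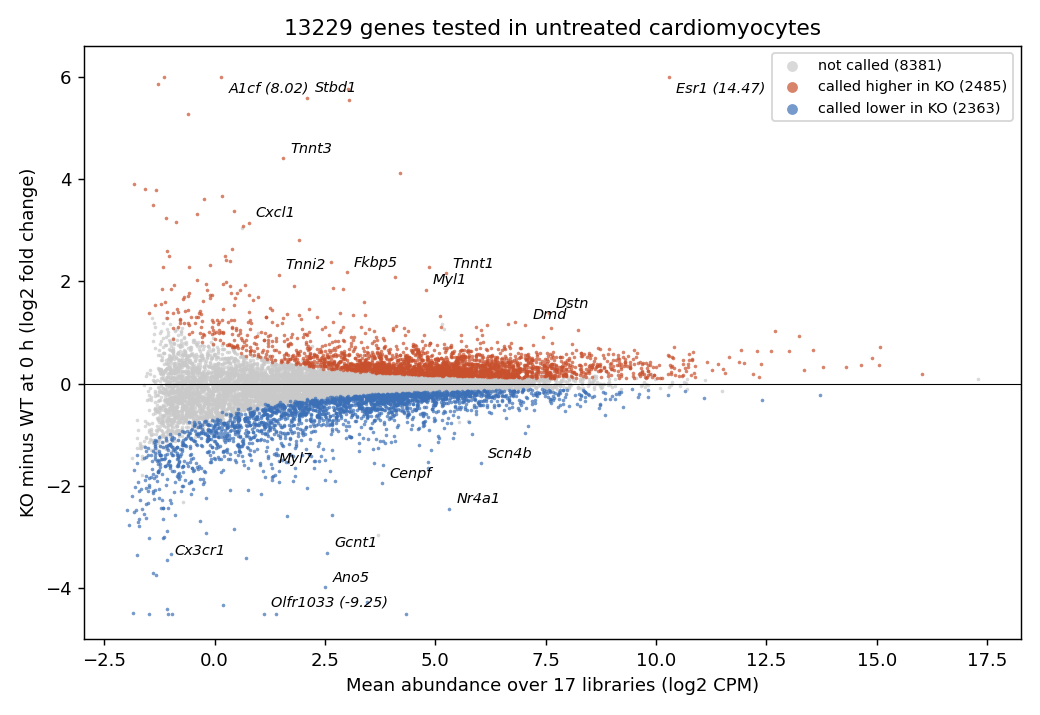
Each point is 1 of 13229 genes, with its mean abundance over 17 libraries (log2 CPM) on the horizontal axis and its log2 fold change, KO minus WT in untreated cells, on the vertical axis; red and blue points were called higher and lower, and values beyond -4.5 or 6 are drawn at those limits. Within these limits, labelled genes reach from Tnnt3 (4.41) and Stbd1 (5.59) down to Nr4a1 (-2.45) and Ano5 (-3.98), while most called genes lie within 1 log2 unit of 0. Beyond them, Esr1 (14.47) and A1cf are labelled at the upper limit and Olfr1033 at the lower.

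The labels were first checked against the target and the cell type. Mbnl1 was at 88.8, 86.3 and 87.3 CPM in WT and 103, 104 and 93.9 CPM in KO, a log2 fold change of 0.19 ± 0.05 (SE, edgeR adjusted p = 8.07e-04) that was -0.01 by library size and -0.13 by ribosomal protein scaling. A count over the whole gene does not show the loss of part of it, so the genotype is used as labelled and was not checked by it. Its paralogue Mbnl2 was at 0.11 ± 0.05 (adjusted p = 0.0733). It was called higher with RLE factors (0.13), with TMM without mitochondrial genes and Esr1 (0.12) and without KO replicate 3 (0.14) or WT replicate 2 (0.17), and called lower by ribosomal protein scaling (-0.22), so no direction is given for it. Counts assigned to Esr1, the oestrogen receptor alpha gene, stood at 2595, 2356 and 2403 CPM in KO and at 0.162, 0.0991 and 0.0479 CPM in WT. The labels do not account for this signal. Effects of whatever goes with it cannot be told apart from those of Mbnl1 loss in any comparison of KO with WT. Of 10 cardiomyocyte defining markers 7 were higher and none lower (median 0.33, 0.12 and 0.00), and their median level per length was 907 CPM per kb of exon in WT and 1250 in KO.

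The contractile genes showed the clearest isoform pattern. Cardiac myocytes assemble thin filaments from cardiac troponins and tropomyosin and thick filaments from ventricular myosin heavy and light chains, and carry little of the skeletal, smooth muscle and atrial paralogues. In KO, several skeletal muscle paralogues and some smooth muscle ones were higher, and atrial light chains were lower. Of 24 listed skeletal and smooth muscle isoforms, 13 passed the filter, of which 9 were higher and none lower (median 0.80, 0.60 and 0.48; 7 higher and 3 lower under either other scaling), and the 11 others had too few counts to test. The 4 members not called included the main smooth muscle actin and myosin genes, Acta2 (0.01 ± 0.05) and Myh11 (-0.07 ± 0.12), beside Tpm4 (-0.17 ± 0.10) and the fast skeletal Mylpf (-0.33 ± 0.46).

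Tnnt3, the fast skeletal troponin T gene (GRCm38 chr7:142498836-142516009, forward strand), had 2, 3 and 7 counts in WT and 86, 65 and 78 in KO. Its level was therefore near 0 in WT and below 5 CPM in KO, with a log2 fold change of 4.41 ± 0.28 (adjusted p = 2.37e-21). Tnnt1, the slow skeletal troponin T gene, was at 11.4, 11.7 and 10.2 CPM in WT and 46.5, 52.2 and 49.8 CPM in KO (2.16 ± 0.07). Tnni2, which encodes fast skeletal troponin I, was at 0.975, 0.743 and 0.67 CPM in WT and 3.55, 3.06 and 3.81 CPM in KO (2.13 ± 0.21). For each of these troponin genes the lowest KO library lay more than 2-fold above the highest WT library. The cardiac troponin T gene Tnnt2 was itself higher by 0.63 ± 0.05 (0.42 by library size and 0.30 by ribosomal protein scaling).

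Among the light chains, Myl1, the fast skeletal essential light chain gene, was at 11.9, 10.0 and 9.10 CPM in WT and 36.8, 36.7 and 36.5 CPM in KO (1.83 ± 0.08). Myl9, the smooth muscle regulatory light chain gene, was at 5.09, 5.80 and 4.26 CPM in WT and 15.5, 15.8 and 14.5 CPM in KO (1.60 ± 0.11). The atrial light chains went the other way. Myl7 fell from 4.39, 3.77 and 3.30 CPM in WT to 1.13, 1.56 and 0.923 CPM in KO (-1.66 ± 0.21), and Myl4 from 5.69, 5.15 and 4.64 CPM to 3.27, 3.12 and 2.19 CPM (-0.85 ± 0.16). Mybphl, an atrial myosin-binding protein gene, was at -1.23 ± 0.39 (adjusted p = 0.00941). The ventricular partners Myl2 (0.64 ± 0.07) and Myl3 (0.66 ± 0.04) were higher in KO.

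**Figure D2:**
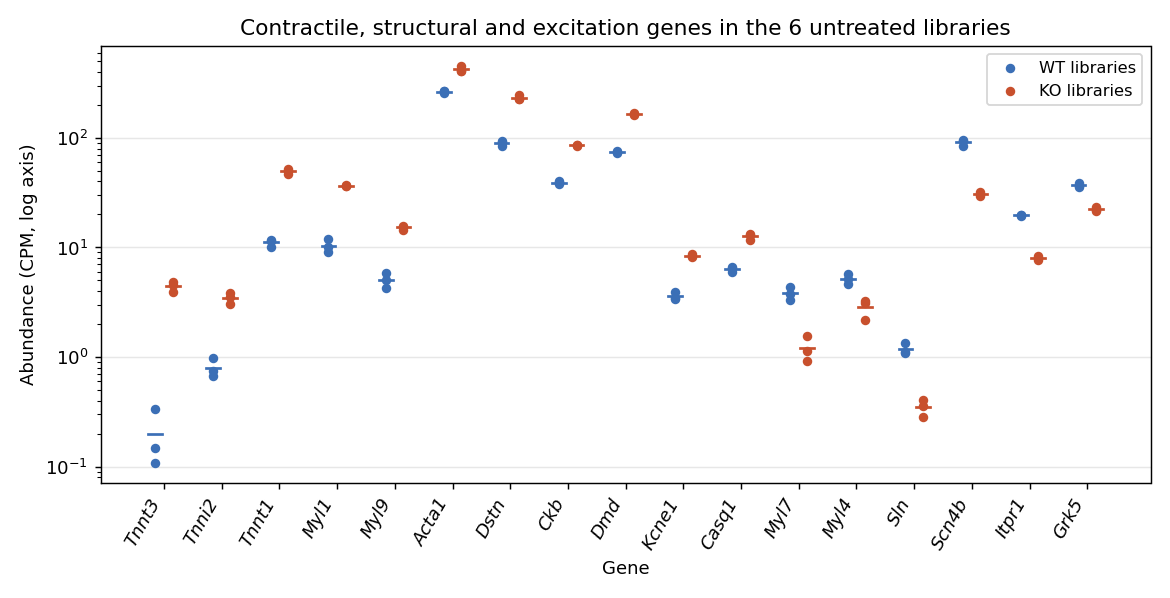
Abundance (CPM, log axis) of 17 named genes in each of the 3 WT (blue) and 3 KO (red) untreated libraries, with bars at the group means. Tnnt3 to Casq1 are higher and Myl7 to Grk5 lower in every KO library than in any WT library.

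A ratio of counts between a pair of genes of the same library does not depend on how the library is scaled, and shows unequal change of the pair, not which member moved. In 25 pairs of related genes the log2 count ratio was compared between genotypes with a 2-sided exact permutation test. With 3 libraries against 3 this exact permutation test cannot go below p = 0.1, and the smallest value adjusted over the pairs was 0.147, so no pair passed a threshold of 0.05. The genotypes did not overlap in 17 of the 25 pairs, 13 with a higher and 4 with a lower ratio in KO, where 45.8% of single genes did not overlap. Several pairs were chosen with earlier results of these data known, and some share a gene. The share of single genes is also not that of ratios, so the count of pairs is a description only.

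The Tnnt1 to Tnnt2 ratio was -8.01, -8.14 and -8.24 log2 units in WT and -6.66, -6.51 and -6.64 in KO, a difference of 1.53. It was 4.02 for Tnnt3 to Tnnt2, resting on 2 to 7 counts of Tnnt3 per WT library, 1.17 for Myl1 to Myl3 and 0.96 for Myl9 to Myl2. The ratio of skeletal to cardiac alpha-actin, Acta1 to Actc1, differed by 0.36. The atrial to ventricular ratios were lower in KO, by -2.34 for Myl7 to Myl2 and -1.53 for Myl4 to Myl3. The ratio of beta to alpha myosin heavy chain, Myh7 to Myh6, a standard index of the fetal programme, was -7.31, -7.32 and -7.28 in WT and -7.23, -7.27 and -7.32 in KO. These values overlapped, with a difference of 0.03 (exact permutation p = 0.3). Slow skeletal troponin I, Tnni1, had as little as 1 count in a library, and its ratio to Tnni3 overlapped between genotypes (difference 0.78, exact permutation p = 0.6).

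**Figure D3:**
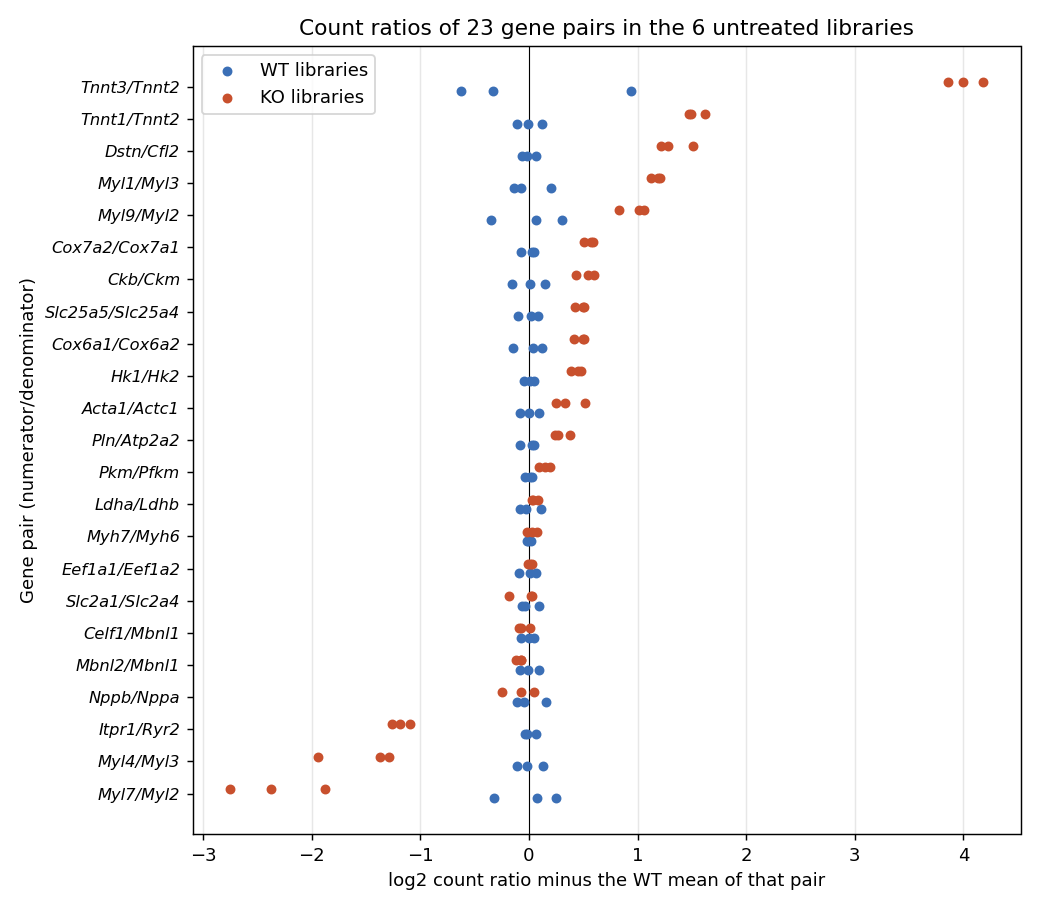
For 23 of the 25 pairs of genes (vertical axis; Tnni1 to Tnni3 is among those not drawn, for its few counts), the log2 count ratio of each untreated library minus the WT mean of that pair (horizontal axis), WT in blue and KO in red. Skeletal over cardiac troponin T lies farthest to the right and atrial over ventricular light chains farthest to the left, while Myh7/Myh6 differs by 0.03.

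The sarcomere as a whole was shifted upward with TMM scaling. Of 13 tested thin filament genes 11 were higher and none lower (median 0.37, 0.16 and 0.04), led by Nexn, an actin-binding Z disc protein gene (0.69 ± 0.08), Acta1 (0.68 ± 0.04) and the tropomyosin gene Tpm1 (0.64 ± 0.05). Of 18 thick filament genes 13 were higher and 3 lower (median 0.31, 0.10 and -0.02); the 3 lower ones were the atrial Myl7, Myl4 and Mybphl. The M band gene Myom3 was higher at 0.84 ± 0.18. Of 30 Z disc and costamere genes 13 were higher and 3 lower (median 0.11, -0.10 and -0.22), the latter Synm, Xirp2 and Flnc.

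Dmd, the dystrophin gene that links actin to the membrane, was at 73.8, 72.9 and 76.5 CPM in WT and 162, 167 and 167 CPM in KO. Each KO library was above 2 times the highest WT library, with a log2 fold change of 1.15 ± 0.05. The alpha-actinin gene Actn2 was at 0.71 ± 0.04, and the intermediate filament gene Synm at -0.77 ± 0.19. Dstn, which encodes the actin-depolymerising protein destrin, was at 94.2, 84.1 and 90.9 CPM in WT and 226, 228 and 245 CPM in KO (1.38 ± 0.05). Its ratio to the muscle cofilin gene Cfl2 was 1.34 log2 units higher in KO.

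Hypertrophic and natriuretic genes were mixed, with 8 of 18 higher and 3 lower (median 0.10, -0.11 and -0.23). Nppa, the A-type natriuretic peptide gene, was at 62.0, 61.5 and 61.8 CPM in WT and 100.1, 103 and 96.5 CPM in KO (0.69 ± 0.05), and Nppb at 0.60 ± 0.07. The ratio of Nppb to Nppa overlapped (difference -0.09, exact permutation p = 0.5). Ccn2, a matricellular growth factor gene, was higher at 0.73 ± 0.06, and the endothelin gene Edn1 lower at -0.74 ± 0.22; the other lower members were Postn and Vim.

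Genes of excitation moved in both directions. The cardiac sodium current runs through a channel with accessory beta subunits, and repolarisation uses several potassium channels. Of 31 channel genes 9 were higher and 11 lower (median 0.04, -0.17 and -0.29). Scn4b, the sodium channel beta 4 gene, fell from 83.9, 93.3 and 95.4 CPM in WT to 30.6, 29.5 and 32.2 CPM in KO (-1.56 ± 0.06), without overlap between the genotypes. Kcne1, a beta subunit of the slow delayed rectifier, was higher, from 3.47, 3.42 and 3.93 CPM to 8.34, 8.16 and 8.65 CPM (1.21 ± 0.12). Kcna4 was at 0.78 ± 0.26 (adjusted p = 0.0162), and was not called by DESeq2, with either other scaling, or without KO replicate 3 (0.59) or WT replicate 1 (0.71).

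Calcium genes had 11 of 32 higher and 8 lower (median 0.02, -0.19 and -0.31). Itpr1, the type 1 IP3 receptor gene, was at 19.4, 19.9 and 19.6 CPM in WT and 8.40, 7.74 and 7.96 CPM in KO (-1.29 ± 0.09), and its ratio to the ryanodine receptor gene Ryr2 differed by -1.18. Sln, the atrial inhibitor of the calcium pump, was at -1.74 ± 0.37. The skeletal calsequestrin gene Casq1 was higher at 0.99 ± 0.10, as was the ryanodine receptor modulator gene Sri at 0.89 ± 0.08. Atp2a2, the SERCA2 pump gene, was lower at -0.23 ± 0.04, so that the ratio of its inhibitor phospholamban, Pln, to Atp2a2 was higher by 0.30.

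Intercalated disc genes had 5 of 14 higher and 5 lower (median -0.01, -0.21 and -0.34). The alpha-T catenin gene Ctnna3 was higher at 0.74 ± 0.08, and Gja5, the gap junction gene of atrium and conduction system, was lower at -0.94 ± 0.29 (adjusted p = 0.00785), a call lost with DESeq2 and without KO replicate 1 (-0.73) or WT replicate 1 (-0.64). Adrenergic and cAMP genes had 6 of 24 higher and 6 lower (median 0.06, -0.15 and -0.27). Grk5, a kinase that desensitises beta receptors, was lower, from 35.5, 38.8 and 36.0 CPM to 21.7, 23.2 and 22.1 CPM (-0.72 ± 0.07), and so was the arrestin gene Arrb1 (-0.65 ± 0.12). The cardiac adenylyl cyclase gene Adcy5 was at 0.42 ± 0.05 (0.09 and not called with ribosomal protein scaling).

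Markers of atrial and conduction myocytes had 6 of 10 lower and 1, Nppa, higher (median -0.54, -0.74 and -0.87). Besides Sln, Myl7, Myl4, Gja5 and Stard10 they included Bmp10, an atrial growth factor gene, at -1.33 ± 0.24. The summed level of the list was higher in KO, at 128 to 135 CPM against 101 to 108 CPM, and Nppa made up most of it. Whether atrial cells entered the preparations to a different extent was not tested.

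Energy genes were higher with TMM scaling. The mitochondrial respiratory chain passes electrons through complexes I to IV and makes ATP at complex V, and its subunits come from nuclear and mitochondrial genes. Of 37 complex I genes 34 were higher and none lower (median 0.42, 0.21 and 0.09), and of 43 genes of complexes II to V 39 were higher and none lower (median 0.36, 0.16 and 0.03). Ndufv3 led complex I at 0.62 ± 0.08, and Cox6a1 (0.66 ± 0.06) and Sdhb (0.66 ± 0.04) led the others. The citric acid cycle had 25 of 27 higher and 1, Pdk4, lower (median 0.32, 0.11 and -0.01), with Suclg1, a subunit of succinyl-CoA ligase, at 0.66 ± 0.05. Mitochondrial ribosomal protein genes had 60 of 77 higher and none lower (median 0.36, 0.16 and 0.03). These counts shrank with the scaling. By library size 23 complex I genes, 22 of complexes II to V, 13 of the cycle and 35 mitochondrial ribosomal genes were higher, with 0, 1, 2 and 3 lower. By ribosomal protein scaling 12, 11, 6 and 14 were higher and 4, 8, 5 and 14 lower.

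The 13 mitochondrially encoded mRNAs had 9 higher and none lower (median 0.72, 0.52 and 0.39, and 0.38 without KO replicate 3 under TMM scaling). Only 5 of the 13 did not overlap between genotypes, where 45.8% of all genes did not. Their summed level overlapped too, at 294736 to 376309 CPM in WT and 375703 to 435065 CPM in KO. The most abundant of them, mt-Co1, was not called (0.09 ± 0.06, adjusted p = 0.221). Others had few and uneven counts, and such genes enter the list median. For example, mt-Co2 had 289 to 794 counts in WT and 431 to 1555 in KO. For mt-Atp6 the counts were 318 to 953 in WT and 281 to 3032 in KO. mt-Atp8 was at 2.08 and 7.68 CPM in KO replicates 1 and 2 and 256 CPM in replicate 3, so that its fold change of 4.12 ± 1.38 was -0.08 without that library. The call was also lost without any 1 of the WT libraries (3.74 to 4.99), with a replicate block (3.24, and 2.80 with the 6 untreated libraries only), with those 6 libraries and no block, and with no filter on low counts.

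Count ratios gave a view of the energy genes that scaling cannot move. In several pairs the widely expressed isoform was higher in KO relative to the muscle isoform. The ratio of Cox7a2 to the muscle isoform Cox7a1 was -0.49, -0.37 and -0.39 log2 units in WT and 0.17, 0.15 and 0.09 in KO (difference 0.55). The ratio of Cox6a1 to Cox6a2 differed by 0.47, that of the ADP/ATP carriers Slc25a5 to Slc25a4 by 0.48, that of the creatine kinases Ckb to Ckm by 0.53 and that of hexokinase 1 to hexokinase 2 by 0.44. The pair of elongation factors Eef1a1 and Eef1a2, where the muscle form is Eef1a2, did not follow this order (0.01, exact permutation p = 0.9). Glucose transporters Slc2a1 to Slc2a4 (-0.04, exact permutation p = 0.8) and lactate dehydrogenases Ldha to Ldhb (0.05, exact permutation p = 0.5) overlapped too.

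Creatine kinase shuttle genes had 12 of 14 higher and 2, Gatm and Slc6a8, lower (median 0.37, 0.17 and 0.04). Ckb, the brain-type creatine kinase gene, rose from 39.5, 40.2 and 37.7 CPM to 86.9, 84.6 and 86.4 CPM (1.14 ± 0.05), and Ckm was at 0.61 ± 0.07. Gatm, an enzyme gene of creatine synthesis, had less than 1 CPM and was lower at -2.35 ± 0.54. Glycolysis and glycogen genes had 18 of 30 higher and 4 lower (median 0.18, -0.03 and -0.15). Pgam1, the phosphoglycerate mutase gene, was higher at 0.81 ± 0.10, and Phkg1, the muscle phosphorylase kinase subunit gene, lower at -0.86 ± 0.09, as were Hk2, Pygb and Slc16a1.

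Fatty acid genes were less uniform than the respiratory chain, with 20 of 37 higher and 9 lower (median 0.16, -0.04 and -0.17). The largest changes were decreases in desaturases and an uncoupling protein. Scd4, a stearoyl-CoA desaturase gene, was at 38.6, 45.0 and 43.3 CPM in WT and 15.7, 14.1 and 14.2 CPM in KO (-1.53 ± 0.07), and its relative Scd2 was at -1.42 ± 0.14. Ucp3, the muscle uncoupling protein gene, fell from 46.7, 48.8 and 46.1 CPM to 17.9, 19.2 and 20.5 CPM (-1.30 ± 0.07). Lpl, lipoprotein lipase, the most abundant gene of the list, was lower at -0.33 ± 0.04. Outside the list the cholesterol exporter gene Abca1 was lower at -1.15 ± 0.08.

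**Figure D4:**
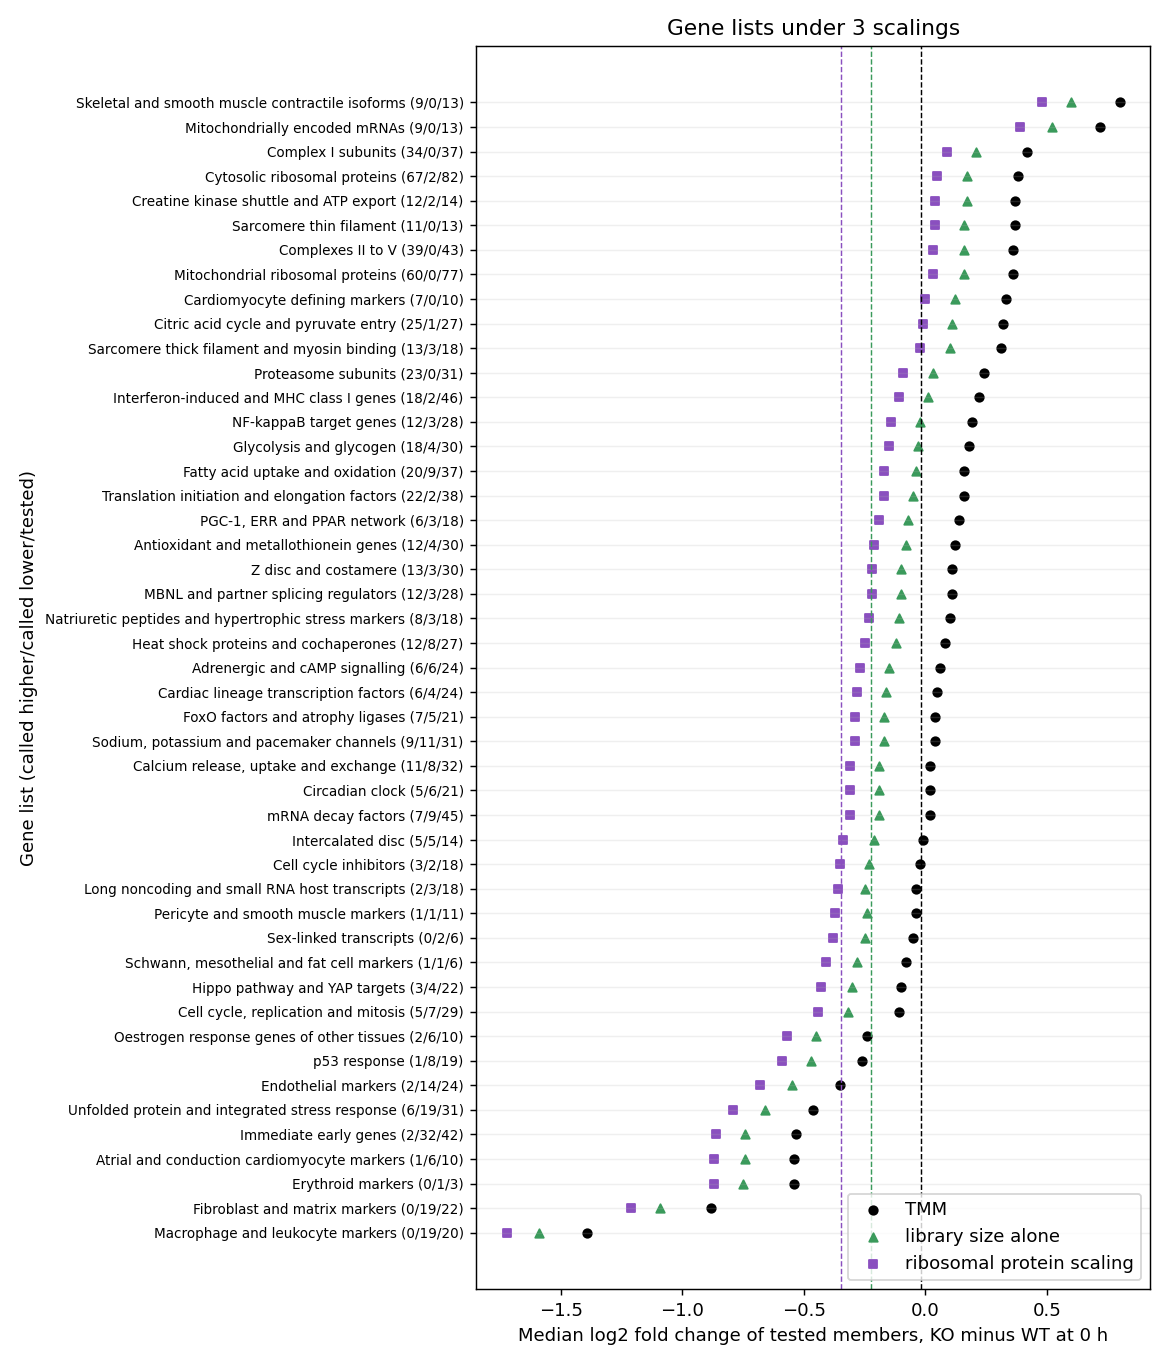
Median log2 fold change of the tested members of 47 gene lists (vertical axis, with the numbers called higher, called lower and tested), KO minus WT in untreated cells, under TMM (circles), library size alone (triangles) and ribosomal protein scaling (squares); dashed lines mark the median of all genes under each scaling. Respiratory chain, ribosomal and sarcomere lists lie to the right of the all-gene line, and the unfolded protein, immediate early, p53, macrophage, fibroblast and endothelial lists to the left, under each of the 3 scalings.

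Genes of protein folding in the endoplasmic reticulum (ER) were lower. Unfolded proteins in the ER activate ATF6, IRE1 and PERK. ATF6 acts with NF-Y at the ER stress response element, CCAAT and CCACG separated by 9 bases, while the PERK branch acts through ATF4. Of 31 genes of these responses 19 were lower and 6 higher (median -0.46, -0.66 and -0.79). Herpud1, picked after its values were seen, did not share the decrease. It had 2099, 2296 and 2397 raw counts in WT and 2697, 2383 and 2567 in KO. These counts are before scaling. The TMM factors were 1.08 to 1.19 in WT and 0.960 to 1.01 in KO, which raises its KO level further relative to WT. Hspa5, the master ER chaperone BiP, was at 675, 669 and 703 CPM in WT and 499, 486 and 508 CPM in KO (-0.46 ± 0.04, adjusted p = 1.77e-14). Hsp90b1, the ER member of the HSP90 family, was at 273, 259 and 268 CPM in WT and 184, 182 and 183 CPM in KO (-0.54 ± 0.04). The lectin chaperone genes Calr (-0.45 ± 0.04) and Canx (-0.34 ± 0.04), the disulfide isomerase gene Pdia6 (-0.55 ± 0.05) and the co-chaperone gene Dnajc3 (-0.24 ± 0.06) were lower as well, although the Dnajc3 call was lost without WT replicate 1 (-0.17). Sdf2l1, an ER-resident cofactor of BiP, had the largest decrease of the list (4.09 ± 1.11 CPM in WT against 1.24 ± 0.29 CPM in KO, mean ± SD, n = 3; log2 fold change -1.71 ± 0.21).

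The element was searched on both strands in the 250 bases before the start of each gene in the RefSeq promoter table (GRCm38.p6). It was found in 37 of 32851 promoters (0.113%). Within the list, 28 tested genes had a promoter in the table and 7 held the element. Of these 7, 6 were lower and none higher (median -0.45), and the seventh, Creld2, was at -0.01 ± 0.15 (adjusted p = 0.962). Of the 21 list genes without it, 11 were lower and 6 higher (median -0.47). Among all tested genes 14 promoters held it, with the same 6 lower and none higher. The windows below run 20 bases to either side of the element, which is in capitals, and are shown because these genes fell together; Calr, Canx, Pdia6, Dnajc3 and Creld2 were picked for the element after their values were seen.
Hspa5 (chr2:34772005-34772063, forward strand): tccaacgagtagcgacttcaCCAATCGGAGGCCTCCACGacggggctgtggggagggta
Hsp90b1 (chr10:86705513-86705676, reverse strand): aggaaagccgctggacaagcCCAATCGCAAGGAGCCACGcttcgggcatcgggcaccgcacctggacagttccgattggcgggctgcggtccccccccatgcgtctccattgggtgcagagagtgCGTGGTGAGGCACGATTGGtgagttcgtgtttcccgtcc
Pdia6 (chr12:17266471-17266529, forward strand): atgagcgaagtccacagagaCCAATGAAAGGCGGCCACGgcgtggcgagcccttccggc
Dnajc3 (chr14:118937807-118937865, forward strand): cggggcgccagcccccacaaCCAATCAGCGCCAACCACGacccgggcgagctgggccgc
Calr (chr8:84847055-84847113, reverse strand): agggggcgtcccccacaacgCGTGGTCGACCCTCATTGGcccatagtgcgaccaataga
Canx (chr11:50325780-50325838, reverse strand): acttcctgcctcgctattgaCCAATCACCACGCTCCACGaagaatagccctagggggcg
Hsp90b1 holds 2 matches, on opposite strands, and in Calr the match is on the strand opposite to the gene. A match is a description of the letters and not of binding.

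The ATF4 side of the list was split. The amino acid and folate enzyme genes Asns (-1.26 ± 0.23) and Mthfd2 (-1.28 ± 0.15) were lower. Ddit4, a stress-induced inhibitor of mTORC1, was higher, at 4.12, 4.36 and 4.07 CPM in WT and 9.13, 6.48 and 8.94 CPM in KO (0.97 ± 0.16). Chac1, a glutathione-degrading enzyme gene (0.78 ± 0.13), and Ddit3, which encodes the PERK-branch factor CHOP (0.69 ± 0.12), were higher too; both were picked after their values were seen. Heat shock protein and cochaperone genes, cytosolic and mitochondrial, had 12 of 27 higher and 8 lower (median 0.08, -0.12 and -0.25). The inducible genes Hspa1a (-1.30 ± 0.11) and Hspa1b (-0.94 ± 0.09) were lower, and as near-identical copies they can share reads. The cochaperone genes Dnajb5 (0.64 ± 0.05) and Bag1 (0.62 ± 0.05) were higher.

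Immediate early genes, transcription factors and feedback regulators induced within minutes of stimulation, were lower as a group, with 32 of 42 lower and 2, Ccn2 and Ier5, higher (median -0.53, -0.74 and -0.86). Nr4a1, an orphan nuclear receptor gene, was at 85.7, 84.7 and 82.1 CPM in WT and 15.2, 15.7 and 15.3 CPM in KO (-2.45 ± 0.06, adjusted p = 3.59e-41). Its relative Nr4a3 was at 12.9, 13.6 and 12.3 CPM in WT and 5.47, 6.12 and 5.71 CPM in KO (-1.16 ± 0.10). The libraries of each genotype were tightly grouped for both genes. Egr1, a zinc finger factor gene, fell from 183, 198 and 171 CPM to 101, 102 and 105 CPM (-0.84 ± 0.05), and Arc was at -1.50 ± 0.26. Egr2, below 1 CPM in every library, was at -1.48 ± 0.49 (adjusted p = 0.0125; not called by DESeq2 or without KO replicate 3). Of 19 p53 response genes 8 were lower and 1, Sesn1, higher (median -0.26, -0.47 and -0.59), with Eda2r at -0.94 ± 0.17 and Phlda3 at -0.89 ± 0.15. The mRNA decay factors had 7 of 45 higher and 9 lower (median 0.02, -0.19 and -0.31), shares near the 18.8% and 17.9% of all genes; among them Zfp36l2, whose product binds AU-rich elements, was at 7.80, 7.78 and 9.58 CPM in WT and 3.16, 4.32 and 5.13 CPM in KO.

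**Figure D5:**
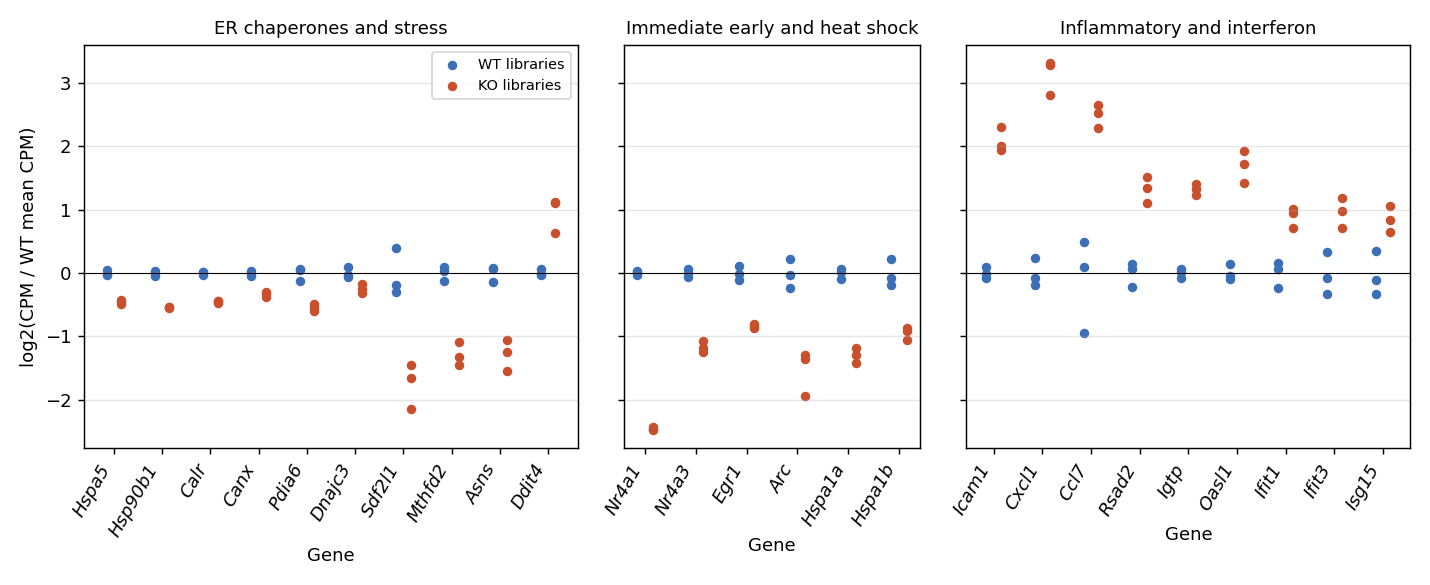
log2 of the CPM of each untreated library over the WT mean CPM of that gene (vertical axis), with 3 WT (blue) and 3 KO (red) libraries per gene. The drawn genes were picked from their lists, mostly by the size of their change or after their values were seen. Of these, the ER chaperone, immediate early and inducible heat shock genes are lower in every KO library, and Ddit4 and the inflammatory and interferon genes higher, without overlap. In the whole lists, 26 of 46 interferon and 13 of 28 NF-kappaB genes were not called, and 2 and 3 were lower.

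Inflammatory and interferon genes were higher in part. NF-kappaB target genes had 12 of 28 higher and 3, Il1b, Cd44 and Rela, lower (median 0.19, -0.02 and -0.14). Icam1, an adhesion molecule gene, was at 9.15, 8.17 and 8.48 CPM in WT and 33.1, 34.3 and 42.2 CPM in KO (2.09 ± 0.08). The chemokine genes Cxcl1 (0.596, 0.446 and 0.479 CPM against 3.55, 4.92 and 5.02 CPM; 3.14 ± 0.24) and Ccl7 (2.49 ± 0.29) were higher, although below 6 CPM in every library. Il1b, a cytokine gene of macrophages, was under 1 CPM and lower at -1.92 ± 0.56 (adjusted p = 0.00487; not called by DESeq2).

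Interferon-induced and MHC class I genes had 18 of 46 higher and 2, Gbp4 and Iigp1, lower (median 0.22, 0.01 and -0.11). Igtp, an interferon-induced GTPase gene, was at 18.8, 17.6 and 19.4 CPM in WT and 49.0, 46.9 and 43.5 CPM in KO (1.32 ± 0.07). Rsad2, the gene of the antiviral protein viperin, was at 7.64, 8.08 and 6.27 CPM in WT and 15.7, 21.0 and 18.6 CPM in KO (1.33 ± 0.18). Mx1 (1.72 ± 0.40) and Oasl1 (1.69 ± 0.23) had larger fold changes at lower levels. Interferon acts through factors that bind the interferon-stimulated response element, searched here as GAAA, 2 bases of any kind and GAAA, on both strands, which overlaps itself in repeats. It lay in 978 of 32851 promoters (2.98%). In the list, 16 of 34 tested genes with a promoter held it, of which 9 were higher (median 0.29), against 5 of 18 without it (median 0.11), and no gene of either group was lower. Over all tested genes, 64 were higher and 57 lower among 300 that held it, and 1890 and 1711 among 9606 that did not. Windows of 3 list members are shown as examples of the element, with the matches in capitals.
Isg15 (chr4:156200855-156200916, reverse strand): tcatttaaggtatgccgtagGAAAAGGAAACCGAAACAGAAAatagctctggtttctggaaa
Ifit1 (chr19:34640765-34640833, forward strand): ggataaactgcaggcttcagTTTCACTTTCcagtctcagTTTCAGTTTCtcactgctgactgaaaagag
Ifit3 (chr19:34583353-34583436, forward strand): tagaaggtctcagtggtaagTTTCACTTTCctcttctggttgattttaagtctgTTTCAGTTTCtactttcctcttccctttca
Isg15, a ubiquitin-like modifier gene, was at 0.86 ± 0.22, and the antiviral genes Ifit1 and Ifit3 were at 0.88 ± 0.17 and 0.95 ± 0.17. All 3 were below 6 CPM in every library and were picked after their values were seen.

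Among genes of protein synthesis and turnover, 67 of 82 cytosolic ribosomal protein genes were higher and 2, Rpl30 and Rpl10, lower (median 0.38, 0.17 and 0.05). Large differences were those of Rpl31 (0.81 ± 0.07) and Rpl27 (0.81 ± 0.07), which have processed pseudogenes that can share reads. By library size 39 were higher and 4 lower, and by ribosomal protein scaling, which uses these genes, 15 and 7. Translation factors had 22 of 38 higher and 2, Eif4a2 and Eif4ebp2, lower (median 0.16, -0.05 and -0.17). Their balance turned with the scaling, to 5 higher and 10 lower by library size and 3 and 20 by ribosomal protein scaling. Proteasome subunits had 23 of 31 higher and none lower (median 0.24, 0.03 and -0.09), against 7 higher and 2 lower by library size and 0 and 10 by ribosomal protein scaling. Antioxidant genes had 12 of 30 higher and 4 lower (median 0.12, -0.08 and -0.21). Gpx3, the secreted glutathione peroxidase gene, was at 61.5, 54.9 and 56.3 CPM in WT and 136, 129 and 131 CPM in KO (1.20 ± 0.05). The mitochondrial superoxide dismutase gene Sod2 was at 0.47 ± 0.04 and the extracellular one, Sod3, at -0.84 ± 0.15; Srxn1, Nqo1 and Cat were the other lower members.

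Splicing regulators had 12 of 28 higher and 3 lower (median 0.11, -0.10 and -0.22), a balance that turned to 2 higher and 10 lower by library size and 0 and 20 by ribosomal protein scaling. Cardiac transcription factors had 6 of 24 higher and 4 lower (median 0.05, -0.16 and -0.28), cell cycle genes 5 of 29 higher and 7 lower (median -0.11, -0.32 and -0.44) and Hippo pathway genes 3 of 22 higher and 4 lower (median -0.10, -0.30 and -0.43). The lower splicing regulators were Ptbp3, Srsf5 and Celf2. Cenpf, a kinetochore gene, fell from 22.6, 21.2 and 22.2 CPM to 5.75, 5.70 and 5.65 CPM (-1.95 ± 0.10). Sox4 was at -1.31 ± 0.10 and Prox1, a lineage factor gene of cardiomyocytes and lymphatic cells, at -0.77 ± 0.06. The nuclear noncoding RNA Neat1 was at 181, 197 and 216 CPM in WT and 117, 93.6 and 91.1 CPM in KO (-0.97 ± 0.10), and the host transcript Snhg6 was higher at 1.06 ± 0.17. Oestrogen response genes known from other tissues, listed because Esr1 was counted in KO, had 2 of 10, Fkbp5 and Cited2, higher and 6 lower (median -0.24, -0.45 and -0.57). Fkbp5, also a glucocorticoid-induced immunophilin gene, was at 2.18 ± 0.12, Igf1 at -1.90 ± 0.19 and Igfbp4 at -1.13 ± 0.18.

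Of the remaining genes with the largest differences, Emilin2, a matrix glycoprotein gene, was at 8.56, 9.36 and 8.24 CPM in WT and 42.8, 39.7 and 44.4 CPM in KO (2.28 ± 0.07). Resf1, a retroelement silencing factor gene, was at 1.12 ± 0.08 and the uridine phosphorylase gene Upp1 at 1.33 ± 0.11. On the lower side stood the carboxypeptidase-like gene Cpxm2 (-1.66 ± 0.07), the epoxide hydrolase gene Ephx1 (-1.59 ± 0.09), the membrane progestin receptor gene Paqr7 (-1.20 ± 0.07) and the cytochrome b561 gene Cyb561a3 (-1.16 ± 0.09).

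A few genes below the abundance set for named genes approached presence in 1 genotype, and were picked after their values were seen. Stbd1, whose product tethers glycogen to membranes (chr5:92603041-92606579), had 4, 2 and 3 counts in WT and 142, 137 and 116 in KO (5.59 ± 0.26). Ano5, a muscle anoctamin gene (chr7:51511029-51598709), had 177, 171 and 221 counts in WT and 7, 15 and 9 in KO (-3.98 ± 0.21). Gcnt1, a glycosyltransferase gene of O-glycan branching (chr19:17326141-17372844), had 230, 248 and 257 counts in WT and 16, 23 and 25 in KO (-3.31 ± 0.15). Among genes with 20 or more counts over the 6 libraries, 3 were counted only in KO and 4 only in WT. A1cf, the gene of an RNA-binding cofactor of apolipoprotein B editing (chr19:31868764-31948995), had 30, 29 and 36 counts in KO and 0 in WT, and was at least 31.6-fold higher, taking 3 counts over the WT group as the floor. The noncoding gene AC117816.1, which starts at 31950084 on the same chromosome just past the end of A1cf, had 22, 8 and 8 counts in KO and 0 in WT. Gm12381 was the remaining one in KO. Olfr1033, an olfactory receptor gene (chr2:86020633-86045171), had 67, 98 and 94 counts in WT and 0 in KO, and was at least 86.6-fold lower; its neighbour Olfr1034 (chr2:86045861-86050742) had 5, 10 and 9 counts in WT and 0 in KO. The pseudogenes Gm18180 and Gm9847 were the other genes counted only in WT.

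Beside the lists above, most markers of macrophages, fibroblasts and endothelial cells were lower in KO, which did not hold for every list of cells other than myocytes. Macrophage and leukocyte markers had 19 of 20 lower and none higher (median -1.39, -1.59 and -1.72), fibroblast and matrix markers 19 of 22 lower and none higher (median -0.88, -1.09 and -1.21) and endothelial markers 14 of 24 lower and 2, Ly6c1 and Flt1, higher (median -0.35, -0.55 and -0.68). Pericyte and smooth muscle markers had 1 of 11 in each direction, Des higher and Abcc9 lower (median -0.04, -0.24 and -0.37), with the smooth muscle markers Tagln and Cnn1 below the filter. Des is also in the Z disc list and Abcc9 in the channel list, so neither is particular to these cells. Erythroid markers had 1 of 3 lower and none higher (median -0.54, -0.75 and -0.87). Schwann, mesothelial and fat cell markers had 1 of 6 in each direction (median -0.08, -0.28 and -0.41). In bulk RNA fewer cells of a type and less RNA per cell cannot be told apart. Summed macrophage markers held 134.6, 156 and 140.2 CPM in WT and 57.0, 64.0 and 63.1 CPM in KO, fibroblast markers 202, 206 and 203 CPM against 125, 128 and 134 CPM, and endothelial markers 637, 621 and 596 CPM against 479, 503 and 550 CPM. The ranges of the genotypes did not overlap for any of the 3 in untreated cells. In the libraries harvested later, the macrophage list had 3 lower and 2 higher at 4 h (median -0.23) and 1 lower and 7 higher at 8 h (median 0.40). Its sum at 4 h was still lower in KO, at 51.1 to 56.2 CPM against 65.4 and 58.6 CPM in WT. At 8 h the sum was higher in KO, at 38.2 to 42.5 CPM against 29.2 to 37.6 CPM in WT. Fibroblast markers had 11 lower and none higher at each later time (median -0.70 and -0.71), and endothelial markers 5 lower and 5 higher at 4 h (median -0.13) and 6 and 4 at 8 h (median -0.11). The summed cardiomyocyte markers were at 51283 to 54662 CPM in WT and 65056 to 68836 CPM in KO. All these sums depend on the markers chosen and do not give the share of each cell type.

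Lyz2, lysozyme of macrophages, was at 27.8, 30.3 and 26.8 CPM in WT and 9.52, 8.88 and 10.6 CPM in KO (-1.55 ± 0.09). Cd74, the MHC class II invariant chain gene, was at -1.09 ± 0.10 and the fractalkine receptor gene Cx3cr1 at -3.45 ± 0.44. The collagen genes Col15a1 (-1.83 ± 0.17) and Col1a1 (-1.74 ± 0.27), the matrix glycoprotein gene Sparc (-0.49 ± 0.06), the actin-severing gene Gsn (-0.87 ± 0.07) and the caveolin gene Cav1 (-0.89 ± 0.07) were lower too, whereas the water channel gene Aqp1, the most abundant endothelial marker, was at -0.05 ± 0.06 (adjusted p = 0.584). The share of these cells in the differences of immediate early, inflammatory and interferon genes was not tested.

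The libraries harvested after 4 and 8 h in actinomycin D are separate from the untreated ones, with only 2 for WT at 4 h. They showed whether the genotype difference recurred under the transcription blocker. RNA made before the block can carry over, so recurrence is not an independent test of the difference at 0 h. Of the 2485 genes higher at 0 h, 1608 (64.7%) were called higher at 4 h and 1225 (49.3%) at 8 h, where 14.6% and 13.9% of all genes were, and 3 and 20 were called lower. Of the 2363 genes lower at 0 h, 1454 (61.5%) were called lower at 4 h and 1103 (46.7%) at 8 h, where 17.4% and 13.7% of all genes were, and 4 and 30 were called higher. Genes with a difference of at least 2-fold and a mean log2 CPM of at least 3 recurred more fully, with 29 of 31 higher ones and 32 of 33 lower ones called in the same direction at 4 h, and 28 and 32 at 8 h, while the remaining lower gene, Lyz2, was called higher at 8 h (0.50). Tnnt3 was at 4.21 and 4.31 at 4 and 8 h, Dmd at 1.28 and 1.24, Scn4b at -1.65 and -1.42, Ucp3 at -1.31 and -1.30 and Hspa5 at -0.43 and -0.53. The Tnnt1 to Tnnt2 ratio differed by 1.52 and 1.91 log2 units at these times, and that of Myl7 to Myl2 by -2.84 and -2.30. Several lists kept their direction. Complex I had 33 higher at 4 h and 24 at 8 h, with none lower. Unfolded protein and integrated stress genes had 18 lower at each time, with 3 higher at 4 h and 1 at 8 h. Other lists had fewer calls at 1 or both times than at 0 h. Besides the macrophage markers, mitochondrially encoded mRNAs had 1 higher and 1 lower at 4 h (median 0.01) and 2 higher and none lower at 8 h (median 0.20). Cytosolic ribosomal protein genes had 72 higher and 1 lower at 4 h (median 0.41) but 16 higher and 2 lower at 8 h (median 0.07), and proteasome subunits 20 higher and 1 lower, then 7 higher and none lower. Whether a difference changed between times was not tested.

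The differences also followed transcript length and abundance. In 10 bins of equal size by exonic length, the median log2 fold change ran from 0.14 in genes up to 1522 bases to -0.06 in genes from 9850 bases, and the share called higher from 26.9% to 12.9%. The share called lower ran from 8.55% to 23.7%. By abundance, the share called higher rose from 3.25% in the lowest bin to 52.0% in the highest, while the share called lower was 17.4% and 13.4%. Across 13216 genes, which are not independent replicates, Spearman's rho of the log2 fold change was -0.16 with exonic length and 0.29 with mean log2 CPM. The short and abundant ribosomal and respiratory chain genes lie at the end of these scales where KO was higher, and the part of length in their shift was not tested.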

How the data were processed

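RNA sequencing (total RNA, BGI DNBseq, per the labels' protocols) was read from the raw count table, in the unit count, that the authors deposited. As tools, with no version or order, the submitters' processing notes list STAR and featureCounts beside DESeq2 and limma, and as builds GRCm38 and mm10. Strandedness and the handling of multiply mapping reads: not given in the sources used here. The deposited ratio table was not used. Of 55487 rows 1 names no gene (0.00735 to 0.0155% of counts) and was left out. GENCODE M21 held 55140 of 55486 identifiers (99.4%).

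Genes were kept by filterByExpr (13229, holding 99.9% of counts) and fitted with edgeR 4.0.16 in R 4.3.3, as 1 robust quasi-likelihood model of 6 groups and 17 libraries with TMM scaling (factors 0.960 to 1.19 in untreated libraries; biological coefficient of variation 5.29%). The standard error was the size of the log2 fold change divided by the square root of F. Replicates of 1 group were compared and none was a copy of another. Alternatives were RLE factors, library size alone, ribosomal protein scaling, TMM without mitochondrial genes and Esr1, other filters, DESeq2 1.42.0, the 6 libraries only, replicate blocks and leaving out each library. The model was tested on simulated counts.

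Genes were named if they had an adjusted p under 0.05, a mean log2 CPM of at least 3, no overlap between genotypes and no clone name (the 15 highest and 15 lowest), or as members of 47 lists (up to 4 called members with the largest change and 2 with the highest count) or of 25 pairs. The members and lists were chosen with earlier results of these data known. Some genes are not reported here.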

Additional observations from a re-analysis of the deposited data

Results flagged for a closer look

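The row of the count table that names no gene carried a signal outside the tested genes. It had 1317, 1335 and 1295 counts in the untreated WT libraries and 2195, 2080 and 2141 in the KO ones, so that its mean share of the library was 1.62 times as high in KO. The row was used in no comparison, and nothing in the labels says what it counts. Groups of 3 libraries are too small for the test of single outlying samples.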

How the results depend on the processing

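The number of genes called higher or lower depended on the scaling, at 906 and 5563 for library size and 479 and 7609 for ribosomal protein scaling, and DESeq2 called 1570 genes lower (2338 higher). Leaving out each untreated library in turn gave 2163 to 2637 higher and 1746 to 2012 lower. Replicate numbers did not pair the samples (residual correlations of same-numbered libraries -0.15, -0.08 and -0.05), and a replicate block gave 2492 higher and 2353 lower, sharing 4802 calls with the fit without it. With the block and the 6 untreated libraries only, 2392 were higher and 2218 lower. Of the named genes, Mbnl1 was -0.01 by library size and -0.13 by ribosomal protein scaling, which also turned Mbnl2 to -0.22 and mt-Co1 to -0.24. Acta2, not called with TMM, was called lower by library size (-0.20) and by ribosomal protein scaling (-0.32), as were Myh11 and Tpm4. mt-Atp8 ranged from -0.08 (without KO replicate 3) to 4.99 (without WT replicate 1). The causes were not tested beyond the scaling itself. The sign of the median changed in 17 of 47 lists by library size and in 21 by ribosomal protein scaling. The count of 17 pairs without overlap was 17 with 1 added to each count and 17 to 19 without single libraries. Depth limits Tnnt3, Egr2, Il1b and the genes at 0 counts, where single counts move the fold change.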
